A study of Mus musculus with 6 samples.

Results

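Collagen chains are modified, folded and crosslinked by a small set of enzymes and chaperones, and 10 of their genes were followed here in growth plate cartilage of embryos with and without a Cre transgene that deletes Hnrnpk in chondrocytes. They are the lysyl hydroxylase genes Plod1, Plod2 and Plod3, the prolyl 4-hydroxylase alpha subunit genes P4ha1 and P4ha2, the prolyl 3-hydroxylase genes P3h1 and P3h2, the gene Crtap for a partner of P3h1, the collagen chaperone gene Serpinh1 and the lysyl oxidase gene Lox. They were chosen by gene symbol, and all 10 were among the 15803 genes of the deposited table. The RNA came from E18.5 mouse embryos, from 3 libraries labelled WT (Hnrnpk fl/fl, without Cre) and 3 labelled CKO (Col2a1-Cre;Hnrnpk fl/fl). Both groups carried the floxed alleles, so they differed by the Cre transgene and the deletion it makes. In CKO the deletion depends on the Col2a1 promoter, which is active in chondrocytes, and cells in whose history it was never active keep Hnrnpk. The paper also describes Col2a1 in the perichondrium. Which cells of the dissected cartilage kept Hnrnpk was not measured here. Embryos of either sex were used, and the sources used here do not say how many embryos went into a library, so p-values measure the spread between these libraries. On GRCm38 (GENCODE M21, whole gene) the members printed by position were Plod1 at chr4:147909753-147936767, Plod2 at chr9:92542223-92608428, Plod3 at chr5:136987019-136996648, P4ha1 at chr10:59323296-59373304, P4ha2 at chr11:54100095-54131665, P3h1 at chr4:119232915-119248975, Crtap at chr9:114375134-114390675 and Serpinh1 at chr7:99345376-99353239. The comparison asks what happened to the genes of collagen modification when Hnrnpk was deleted in chondrocytes.

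In the endoplasmic reticulum, prolyl 4-hydroxylase, a complex of a catalytic alpha subunit and P4hb, hydroxylates prolines, and the triple helix is stable at body temperature only with them. Lysyl hydroxylases modify lysines that later carry sugars and crosslinks, P3h1 with Crtap and the isomerase Ppib hydroxylates single prolines, and Serpinh1 (Hsp47) holds the folded helix until it leaves the reticulum. Outside the cell, lysyl oxidase oxidises lysines of the fibrils so that crosslinks can form, and the hydroxylases need oxygen, iron, 2-oxoglutarate and ascorbate for their reactions. In several other cell types P4ha1, P4ha2, Plod2 and Lox are known as genes induced by hypoxia through Hif-1, the pathway that the study followed in this cartilage.

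The values were CPM, a gene's reads scaled to the same total in each library, made from 1153871 to 1454094 recovered reads per library, and 1 read was worth 0.688 to 0.867 CPM. At 3 reads, the floor used here, a gene stood at 2.06 to 2.60 CPM, and such floors cover counting error only. Hnrnpk itself was at 842 to 955 CPM in the libraries labelled WT and 759 to 949.9 CPM in those labelled CKO, which overlapped (log2 difference -0.14, standard error 0.15, limma's adjusted p = 0.622). These reads cover the whole gene and not the deleted exons alone, so they do not check the labels, and directions below rest on the labels. Of the cell type markers, the 8 chondrocyte genes summed to between 23100 and 27640 CPM in WT and between 5209 and 5357 CPM in CKO. Of these 8, 6 were lower past the adjusted threshold, where 2.6% of all genes tested were. The 7 genes of hypertrophic chondrocytes summed to 1505 to 4611 CPM in WT and 12410 to 15250 CPM in CKO, of which most was Spp1, while Ihh was at or under 3 reads in every library. The 8 fibroblast and tendon markers summed to 2777 to 4423 CPM in WT and 981 to 1835 CPM in CKO, with Scx and Pi16 at or under 3 reads. The epidermis markers, of which 6 of 8 were measured, summed to 49.0 to 69.6 CPM and 396 to 892 CPM, with Krt1, Krtdap and Lor at or under 3 reads. Most of the epidermis sum in CKO was Klk10 (289, 830.0 and 291 CPM in CKO 1 to 3). Sbsn, at 2 to 4 reads in WT, rose as well, with 83.9, 16.6 and 72.8 CPM in CKO 1 to 3. Its log2 difference was 3.78 (limma's adjusted p = 0.00466), without overlap between groups. Krt10 was at 16.9 to 39.1 CPM in WT and 31.2 to 44.0 CPM in CKO, which overlapped. In WT 1 to 3 the skeletal muscle markers summed to 64.5, 39.0 and 166 CPM, and those of macrophages and osteoclasts to 152, 158 and 384 CPM. WT 3 also had the highest WT sum for chondrocyte, hypertrophic, osteoblast and fibroblast markers. It did not for endothelium, erythroid or epidermis markers. The part of other cells in the members' values was not tested. CKO 2 and WT 3 stood apart from the other libraries of their labels. The correlation of log2(CPM + 1) across genes, which are not independent replicates, was 0.965 between CKO 1 and CKO 3 and 0.924 and 0.921 between either of them and CKO 2, and it was 0.965 between WT 1 and WT 2 and 0.937 and 0.938 between either of them and WT 3. In bulk RNA, fewer cells of a type and less RNA per cell cannot be told apart.

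The sequences just upstream of the start of Plod1, Plod3, P4ha1 and P4ha2 are printed because these are isozymes of the same reactions. The CPM ratios of Plod3 to Plod1 and of P4ha2 to P4ha1 did not overlap between groups (exact permutation p = 0.1 each, the smallest possible). The sequences are the 250 bases before the start that RefSeq gives on GRCm38.p6, written 5′ to 3′ along the gene. For P4ha2 this start lies inside the GENCODE span given above, which begins further upstream, so its window is upstream of the RefSeq start only. Capitals mark ACGTG and GCGTG, the core letters of a hypoxia response element on either strand, and TTCNNGAA, letters of a heat shock element.
Plod1 (chr4:147936777-147937026, minus strand): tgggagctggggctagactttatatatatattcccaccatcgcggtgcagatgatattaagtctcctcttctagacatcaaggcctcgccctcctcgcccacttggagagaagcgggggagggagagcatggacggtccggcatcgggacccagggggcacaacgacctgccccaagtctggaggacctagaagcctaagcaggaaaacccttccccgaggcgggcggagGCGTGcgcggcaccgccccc
Plod3 (chr5:136986769-136987018, plus strand): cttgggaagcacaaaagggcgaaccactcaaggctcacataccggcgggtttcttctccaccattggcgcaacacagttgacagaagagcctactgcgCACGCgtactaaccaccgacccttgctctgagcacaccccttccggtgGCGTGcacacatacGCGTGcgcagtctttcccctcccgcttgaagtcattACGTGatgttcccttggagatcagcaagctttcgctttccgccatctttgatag
P4ha1 (chr10:59323046-59323295, plus strand): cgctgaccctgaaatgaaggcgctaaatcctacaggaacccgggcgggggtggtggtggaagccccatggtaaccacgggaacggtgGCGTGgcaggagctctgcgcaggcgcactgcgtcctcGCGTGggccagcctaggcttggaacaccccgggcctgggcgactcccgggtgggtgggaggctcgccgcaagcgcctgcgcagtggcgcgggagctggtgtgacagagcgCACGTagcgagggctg
P4ha2 (chr11:54100674-54100923, plus strand): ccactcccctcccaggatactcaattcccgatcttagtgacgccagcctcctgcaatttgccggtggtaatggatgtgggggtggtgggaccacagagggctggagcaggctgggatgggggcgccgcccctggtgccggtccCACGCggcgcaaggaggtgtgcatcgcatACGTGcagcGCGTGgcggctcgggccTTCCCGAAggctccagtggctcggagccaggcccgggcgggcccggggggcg
Windows were searched for 7 of the 10 members (8 windows, 2 of them of P3h1), and not for Plod2, P3h2 or Lox. Each of the 8 held ACGTG or GCGTG, which 38.6% of all 32851 windows held. ACGTG alone was in 16.6% of all windows. It was found 1 time each before Plod3, P4ha1, P4ha2 and Serpinh1 and 2 times in 1 of the windows of P3h1, and not before Plod1 or Crtap. The palindrome CACGTG would count on both strands, and both cores hold the letters CGTG. The heat shock letters GAANNTTC or TTCNNGAA stood in 12.8% of all windows and, among the 7 members searched, only before P4ha2. CCAAT and CCACG at the spacing of the ER stress response element stood in 0.113% of all windows and in none of the members' windows. A match is a description of letters and not of binding.

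Among the 10 members Plod1 and Plod2 fell in the libraries labelled CKO, and none rose. With 9 of the 10 tested by limma on log2(CPM + 1), because P3h2 lay under the minimum mean of 1 CPM, 2 were lower at an adjusted p under 0.05, where 2.6% of all 12155 genes tested were lower, 3.18% were higher and 5.78% were called in either direction. At an unadjusted p under 0.05, 5 members were lower, where 10.1% of all genes were. The criterion of the study, a log2 difference beyond 1 in either direction with an unadjusted p under 0.05, was met by Plod1 and Plod2, where 5.1% of all genes met it downwards and 5.3% upwards. In 4 members the groups did not overlap and CKO was lower, as in 13.2% of all genes. The median log2 difference was -0.56 over the 9 members and 0.013 over all genes tested. The counts depended on single libraries: without CKO 2, 4 members were lower (Plod1, Plod2, Plod3 and P4ha2) and 1 was higher (Lox), and without WT 1, CKO 1 or CKO 3 only Plod1 was lower. Calls over all genes moved the same way. They numbered 316 lower and 387 higher with all libraries, and 606 and 692 without CKO 2. Lower calls over all genes were 81 without WT 1, 125 without CKO 1 and 108 without CKO 3. For members with groups that do not overlap, the exact permutation p over libraries was 0.1, the smallest that 3 against 3 allow.

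**Figure D1:**
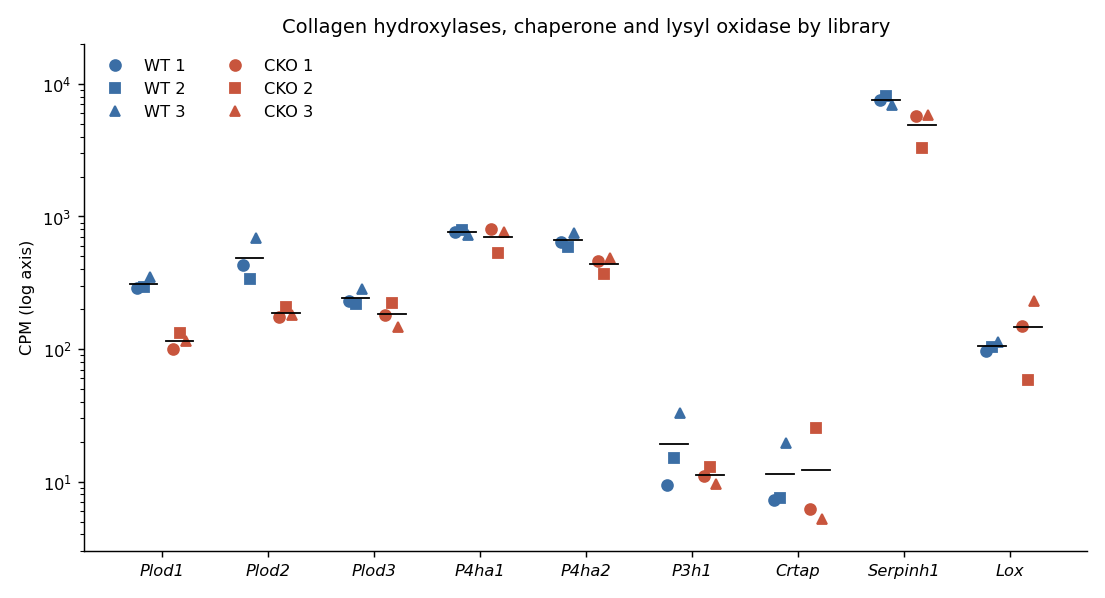
CPM (log axis) of 9 members in the 6 libraries, with circles, squares and triangles for libraries 1, 2 and 3 of each label and a bar at each group mean. Blue WT and red CKO points are apart for Plod1, Plod2, P4ha2 and Serpinh1, and P3h2, at 0 to 2 reads per library, is left out.

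Plod1 encodes lysyl hydroxylase 1, which acts mainly on lysines within the triple helix. WT 1, WT 2 and WT 3 held 286, 294 and 347 CPM of it, against 99.7, 132 and 115 CPM for CKO 1, CKO 2 and CKO 3. The groups were well apart, with the highest CKO library under all WT libraries. The mean fell from 309 ± 33.1 CPM (SD, n = 3) to 116 ± 16.2 CPM (SD, n = 3), which is 37.4% of WT, and the log2 difference was -1.41 (standard error 0.17, limma's adjusted p = 0.00196). Plod1 held place 11 by p-value among the genes that were lower, and its adjusted p stayed between 1.75e-08 and 0.0186 over 14 alternatives.

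Plod2 encodes lysyl hydroxylase 2, the enzyme for lysines of the telopeptides at the ends of the helix. WT 1, WT 2 and WT 3 held 428, 336 and 688 CPM, against 175, 208 and 179 CPM for CKO 1, CKO 2 and CKO 3. Here WT 3 was high and spread the WT group, while the CKO libraries lay close together. The WT mean was 484 ± 182 CPM (SD, n = 3), against 187 ± 18.0 CPM (SD, n = 3) for CKO, or 38.7% of WT, with a log2 difference of -1.30 (standard error 0.24, limma's adjusted p = 0.0126). Without WT 3 it was -1.02 (limma's adjusted p = 0.0143). The call was lost, at an unchanged direction, without WT 1 (limma's adjusted p = 0.057), without CKO 1 (0.0554) and without CKO 3 (0.061).

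Plod3 encodes lysyl hydroxylase 3, which also transfers sugars to hydroxylysine. Levels were 230.5, 218 and 282 CPM for WT 1 to 3, against 179.5, 222 and 146 CPM for CKO 1 to 3. Of these only CKO 2 reached the values of WT. The log2 difference of -0.43 (standard error 0.19, limma's adjusted p = 0.23) did not pass the threshold, and without CKO 2 it was -0.58 (limma's adjusted p = 0.0484). In the annotation the exons of Plod3 share 529 bases with those of Znhit1 on the opposite strand, and the strand setting of the read counter is not given in the sources used here.

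Within the lysyl hydroxylases, the ratio of isozymes differed between groups for Plod3 and overlapped for Plod2, both set against Plod1. The ratio of Plod3 to Plod1 CPM was 0.805, 0.742 and 0.813 in WT 1, 2 and 3 and 1.80, 1.68 and 1.27 in CKO 1, 2 and 3, without overlap. On the log2 scale the ratio was 0.99 higher in CKO (standard error 0.16 from the pooled SD), or 1.99-fold, with an exact two-sided permutation p = 0.1, so that no ratio could pass 0.05. The ratio of Plod2 to Plod1 was 1.49, 1.14 and 1.98 in WT and 1.75, 1.57 and 1.56 in CKO and overlapped (log2 difference 0.11, standard error 0.24, exact permutation p = 0.7). Per kilobase of annotated exon, the 3 genes summed to 173, 154 and 241 CPM per kb in WT and 86.9, 107 and 82.7 CPM per kb in CKO, and all CKO libraries were below all WT libraries. Of this sum Plod3 made up 28.9% ± 2.79 (SD, n = 3) in WT and 43.6% ± 3.80 (SD, n = 3) in CKO, and Plod2, the largest share in WT at 46.4% ± 6.22, made up 37.8% ± 2.16 in CKO.

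**Figure D2:**
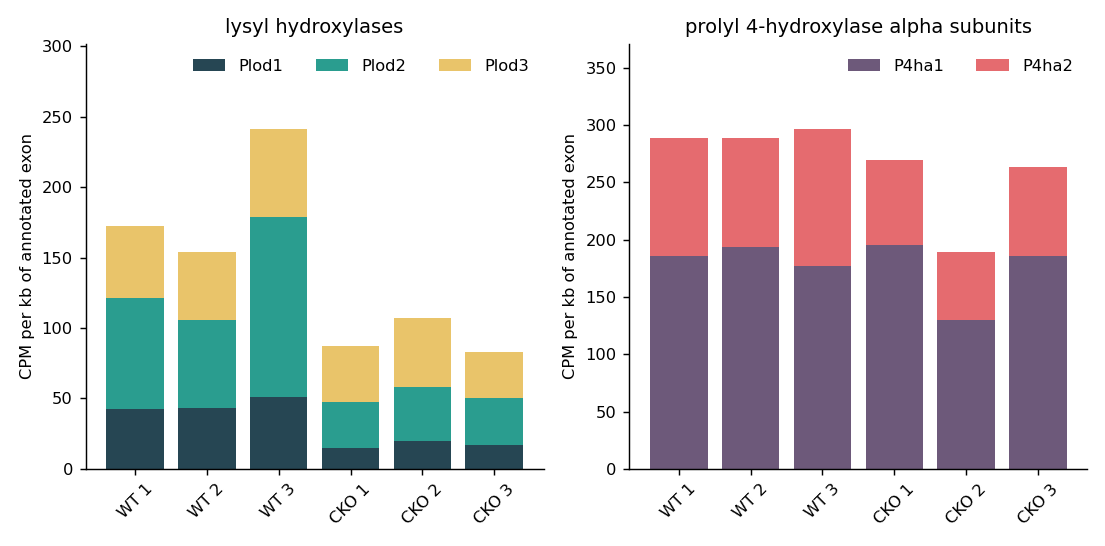
CPM per kb of annotated exon by library, stacked by gene, for the 3 lysyl hydroxylases (left) and the prolyl 4-hydroxylase alpha subunits P4ha1 and P4ha2 (right). The lysyl hydroxylase bars are shorter in each library labelled CKO (82.7 to 107) than in each labelled WT (154 to 241), and of the alpha subunit bars that of CKO 2 is the shortest, at 189.

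Neither prolyl 4-hydroxylase alpha subunit gene among the members passed the threshold. A further alpha subunit gene outside the members, P4ha3, had 13 reads over the WT libraries and 22 over the CKO libraries (limma's adjusted p = 0.869). For P4ha1, WT 1 to 3 held 765, 797 and 727 CPM, against 805, 533 and 763 CPM for CKO 1 to 3. Only CKO 2 was outside the WT range by much, and the log2 difference was -0.15 (95% interval -0.53 to 0.24, limma's adjusted p = 0.683). Without CKO 2 it was 0.039. P4ha2, the second alpha subunit, measured 641, 593 and 748 CPM for WT 1 to 3, against 463, 369 and 485 CPM for CKO 1 to 3, with every CKO library under every WT library. The WT mean was 661 ± 79.2 CPM (SD, n = 3), against 439 ± 61.8 CPM (SD, n = 3) for CKO, and its log2 difference of -0.59 (standard error 0.16, limma's adjusted p = 0.0613) was just outside the threshold. In 6 of 14 alternatives P4ha2 passed it, among them edgeR's quasi-likelihood test on the recovered reads (adjusted p = 0.0391) and DESeq2 (adjusted p = 0.0385), and over all 14 the adjusted p ranged from 0.0385 to 0.171.

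The ratio of P4ha2 to P4ha1 CPM was 0.838, 0.744 and 1.03 in WT and 0.575, 0.692 and 0.636 in CKO, without overlap. The log2 ratio differed by -0.45 (standard error 0.16, exact permutation p = 0.1). Per kb, P4ha1 made up 63.7% ± 3.79 of P4ha1 and P4ha2 together in WT and 70.6% ± 1.92 in CKO (SD, n = 3 each). Their sum was 289, 289 and 297 CPM per kb in WT and 269.9, 189 and 263 CPM per kb in CKO. P4hb, protein disulfide isomerase and the other subunit of the enzyme, fell from 3324 ± 173 CPM (SD, n = 3) to 2049 ± 113 CPM (SD, n = 3), a log2 difference of -0.70 (standard error 0.13, limma's adjusted p = 0.0152). Its level per kb remained above that of P4ha1 and P4ha2 together in each library, and was 671 to 742.5 CPM per kb for the CKO libraries.

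The members of the prolyl 3-hydroxylase complex were low in this cartilage RNA. P3h1 had 13, 20 and 39 reads in WT 1, 2 and 3 and 16, 18 and 11 reads in CKO 1, 2 and 3, and Crtap had 10, 10 and 23 reads in WT and 9, 35 and 6 reads in CKO. In both genes WT 3 was the highest WT library, and for Crtap CKO 2 was the highest of all. The log2 difference was -0.56 for P3h1 (95% interval -1.48 to 0.36, limma's adjusted p = 0.48) and -0.097 for Crtap (95% interval -1.37 to 1.17, limma's adjusted p = 0.946). At this depth changes within these wide intervals could not be detected, and the sign for Crtap turned with edgeR and DESeq2 on the recovered reads and without WT 3, CKO 1 or CKO 3. P3h2 had 0 reads in each library labelled WT and in CKO 2, 2 reads in CKO 1 and 1 read in CKO 3, all under the floor of 3 reads. Ppib, which completes the complex and serves other collagen chains as well, had many more reads, with 1769 ± 215 CPM for WT and 1372 ± 158 CPM for CKO (SD, n = 3 each), without overlap (log2 difference -0.37, standard error 0.15, limma's adjusted p = 0.198).

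Serpinh1, which encodes Hsp47, was by far the most abundant member. WT 1, WT 2 and WT 3 held 7506, 8153 and 6871 CPM, against 5678, 3259 and 5783 CPM for CKO 1, CKO 2 and CKO 3. All CKO libraries were below all WT libraries, and CKO 2 was far below the other CKO libraries. The WT mean was 7510 ± 641 CPM (SD, n = 3), against 4907 ± 1428 CPM (SD, n = 3) for CKO, or 65.3% of WT. The log2 difference of -0.66 (standard error 0.22, limma's adjusted p = 0.11) did not pass the threshold in any of 14 alternatives (adjusted p from 0.0596 to 0.292), and without CKO 2 it was -0.39.

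Lox, the member that acts outside the cell, was the only one tested with a log2 difference above 0. Its level was steady in WT, at 97.1, 104 and 113 CPM in WT 1, 2 and 3, and spread in CKO, with 149.9, 58.5 and 230.5 CPM for CKO 1, CKO 2 and CKO 3. CKO 1 and CKO 3 were above the WT range and CKO 2 below it, so that the log2 difference was 0.28 with all libraries (standard error 0.39, limma's adjusted p = 0.737), 0.83 without CKO 2 (limma's adjusted p = 0.0221) and -0.15 without CKO 3 (limma's adjusted p = 0.867). Some markers of hypertrophic chondrocytes and osteoblasts were likewise lower in CKO 2 than in CKO 1 and CKO 3, and others were not. For Ibsp, CKO 1 to 3 held 708, 83.0 and 808 CPM, against 82.5 to 129 CPM for WT, and for Mmp13 2155, 377.5 and 2301 CPM, against 257 to 650.5 CPM. Spp1 was alike across CKO 1 to 3, with 11110, 11880 and 12040 CPM, as was Col1a1, with 245, 240.4 and 269 CPM, and Col10a1 was highest for CKO 2, with 24.8, 45.5 and 16.5 CPM. The 8 osteoblast markers summed to 907 to 1439 CPM in WT and to 1353, 553 and 1459 CPM in CKO 1, 2 and 3, while Dmp1 and Ifitm5 were at or under 3 reads throughout. Their part in the Lox values was not tested.

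Set on a common length scale, the order of levels in WT was Serpinh1 (3074 ± 262 CPM per kb of annotated exon, SD, n = 3), P4ha1 (186 ± 8.47), P4ha2 (106 ± 12.7), Plod2 (89.7 ± 33.8), Plod3 (53.9 ± 7.50), Plod1 (45.7 ± 4.90), Lox (21.9 ± 1.69), Crtap (6.43 ± 3.93), P3h1 (4.97 ± 3.20) and P3h2 (0). The libraries of P4ha2 and Plod2, of Plod2 and Plod3, of Plod3 and Plod1, and of Crtap and P3h1 overlapped in their ranges. Compared within libraries, Plod2 was above Plod3, Plod3 above Plod1 and Crtap above P3h1 in each of the 3 WT libraries, while P4ha2 was above Plod2 in WT 1 and WT 2 and below it in WT 3. In CKO Plod1, at 14.7 to 19.5 CPM per kb, overlapped with Lox, at 12.2 to 48.2 CPM per kb. The annotated exon length joins all transcripts of a gene, so levels of genes with long or unused exons are understated.

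The substrates of these enzymes fell as well. All 6 cartilage collagen genes on the list (Col2a1, Col9a1, Col9a2, Col9a3, Col11a1 and Col11a2) fell past limma's adjusted threshold. Of all genes tested, 2.6% did so, and the median log2 difference of the 6 collagen genes was -2.53. It was -1.03 for Col2a1 and -1.27 for Col11a1, which fell less than Plod1 and Plod2. They summed to 7632, 8891 and 11890 CPM in WT 1, 2 and 3 and to 2875, 4032 and 2844 CPM in CKO 1, 2 and 3, a log2 difference of -1.54 for the sum. Within a library, the ratio of a member to this sum does not depend on the scaling of the library. The log2 ratio was 0.12 higher in CKO for Plod1 (standard error 0.14, exact permutation p = 0.5) and 0.23 higher for Plod2 (standard error 0.22, exact permutation p = 0.4), and the groups overlapped for both. With Col2a1 alone as the substrate the sign turned, to -0.39 for Plod1, now without overlap (exact permutation p = 0.1), and to -0.28 for Plod2 (exact permutation p = 0.3), and for Plod1 it was -0.089 with Col1a1, Col1a2 and Col3a1 added to the sum. The share of all genes without overlap was not computed for these other substrates.

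Of the other members, all but Serpinh1 stood higher relative to the collagens without overlap. The log2 ratio was higher by 1.11 for Plod3 (standard error 0.14), by 1.39 for P4ha1 (0.41), by 0.94 for P4ha2 (0.31), by 0.95 for P3h1 (0.35), by 1.41 for Crtap (0.63) and by 1.81 for Lox (0.75). These 6 of 9 ratios did not overlap between groups (exact permutation p = 0.1 each). With Col2a1 alone as the substrate, only Plod3 of these 6 remained without overlap (log2 difference 0.60, exact permutation p = 0.1), and the differences were 0.89 for P4ha1, 0.44 for P4ha2, 0.44 for P3h1, 0.91 for Crtap and 1.31 for Lox (exact permutation p = 0.2 to 0.4). How many of all genes overlap against Col2a1 alone was not computed, so that result for Plod3 has no background. Against the summed collagens, 74.3% of 10680 genes with reads in every library stood higher without overlap. Their median was 1.55, against 0.95 over the 9 members, so the count of 6 is near the background. For Serpinh1 the ratio to the collagens was 0.983, 0.917 and 0.578 in WT and 1.98, 0.808 and 2.03 in CKO, where CKO 2 lay within the WT range (log2 difference 0.88, standard error 0.50, exact permutation p = 0.3).

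**Figure D3:**
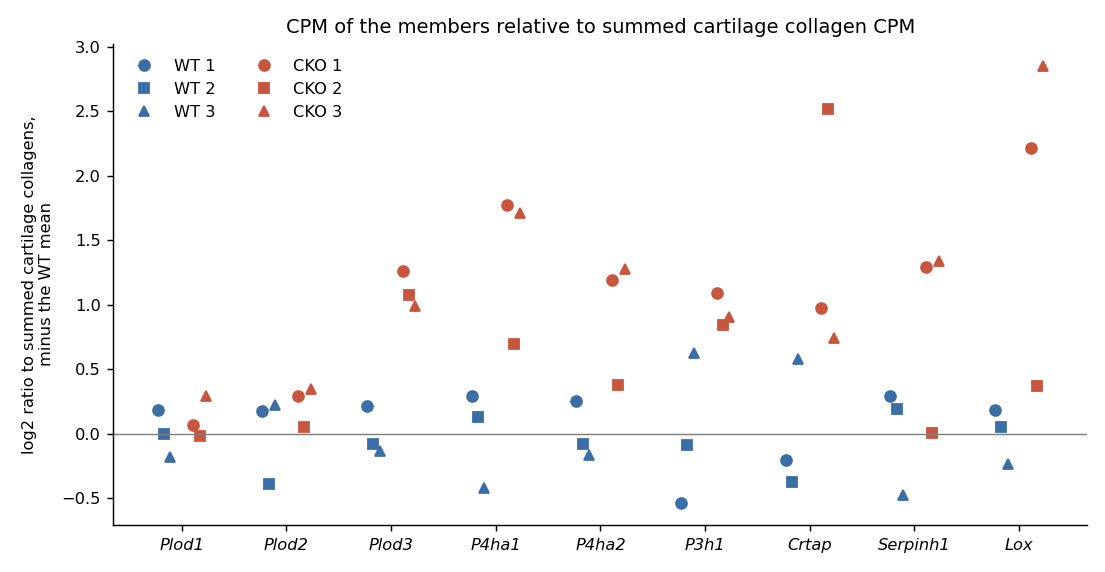
log2 ratio of each member's CPM to the summed CPM of 6 cartilage collagen genes, minus the mean of the WT libraries, with blue for WT and red for CKO. Plod1 and Plod2 overlap between groups near 0, Plod3 is higher by 1.11 with little spread, and for P4ha1, P4ha2, Serpinh1 and Lox the CKO 2 square lies under the other CKO points.

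Among the other genes of collagen biosynthesis, a list of 47 genes, 44 were tested, of which 3 fell and 2 rose past limma's adjusted threshold, with a median log2 difference of -0.30. Of all genes tested 2.6% were lower and 3.18% higher, and no test compared the list with them. Calls over all genes went from 316 lower to 606 lower without CKO 2, and to 81 lower and 137 higher without WT 1. The list moved the same way, with 7 lower genes without CKO 2 and 0 in either direction without WT 1. Besides P4hb, the genes that fell were Pcolce2, an enhancer of procollagen C-proteinase (219 ± 40.1 CPM in WT and 80.7 ± 29.6 CPM in CKO, log2 difference -1.47, limma's adjusted p = 0.00915), and Fkbp14, a prolyl isomerase of the endoplasmic reticulum (191 ± 82.4 CPM in WT and 71.4 ± 29.1 CPM in CKO, log2 difference -1.43, limma's adjusted p = 0.0436). Both that rose were relatives of Lox. For Loxl4, WT 1 to 3 held 89.2, 113 and 100.5 CPM, against 339, 179.7 and 317 CPM for CKO 1 to 3 (log2 difference 1.41, standard error 0.24, limma's adjusted p = 0.00935). For Loxl3 the values were 123.2, 122 and 239.9 CPM, against 331, 504 and 321 CPM (log2 difference 1.29, standard error 0.28, limma's adjusted p = 0.0244). For both every CKO library was above every WT library. Loxl1 overlapped between groups, with 19.5 to 43.9 CPM for WT and 20.6 to 40.4 CPM for CKO.

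**Figure D4:**
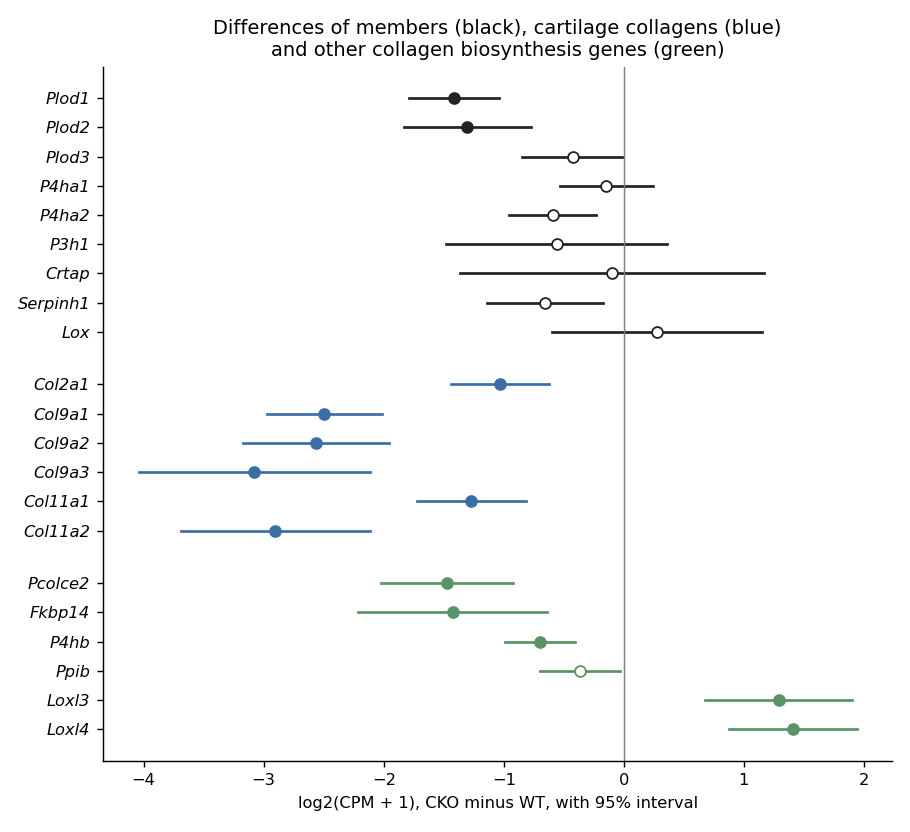
Difference of log2(CPM + 1), CKO minus WT, with its 95% interval, for 9 members (black), 6 cartilage collagens (blue) and the genes of the biosynthesis list that passed the adjusted threshold with Ppib (green). Filled points passed limma's adjusted threshold, and of the members these are Plod1 (-1.41) and Plod2 (-1.30). Both lie to the right of Col9a1, Col9a2, Col9a3 and Col11a2 and to the left of Col2a1 (-1.03) and Col11a1 (-1.27).

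Each library was also counted by how often it was the highest or lowest of the 6 libraries in this pathway. WT 3 was the highest of the 6 libraries in 5 of the 9 members and in 23 of the 44 other genes (52.3%), against 20.9% of all genes tested. CKO 2 was the lowest in 4 of the 9 members (P4ha1, P4ha2, Serpinh1 and Lox) and in 14 of the 44 genes (31.8%), against 20.3% of all genes. CKO 3 was the lowest in 2 of the 9 members and in 11 of the 44 genes (25%), against 14.4% of all genes. An excess of lowest values in the list was thus not particular to CKO 2. The following genes were chosen after their values were seen. Hspa5, the main Hsp70 chaperone of the endoplasmic reticulum, held 6803 CPM for CKO 2, against 1051 to 1700.0 CPM for the 5 other libraries. Hsp90b1, another of its chaperones, was at 281 CPM in CKO 2 and at 59.1 to 93.5 CPM in the 5 other libraries. Calr, a lectin chaperone there, was at 956 CPM in CKO 2 and 416 to 451 CPM elsewhere. In the same library the collagen-related genes Pcolce, at 690.0 CPM, and Fkbp7, at 28.1 CPM, were lowest, against 1785 to 2010 CPM and 107 to 184 CPM in the other 5. Whether this library's state has a part in the values of Serpinh1, P4ha1 and Lox was not tested.

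**Figure D5:**
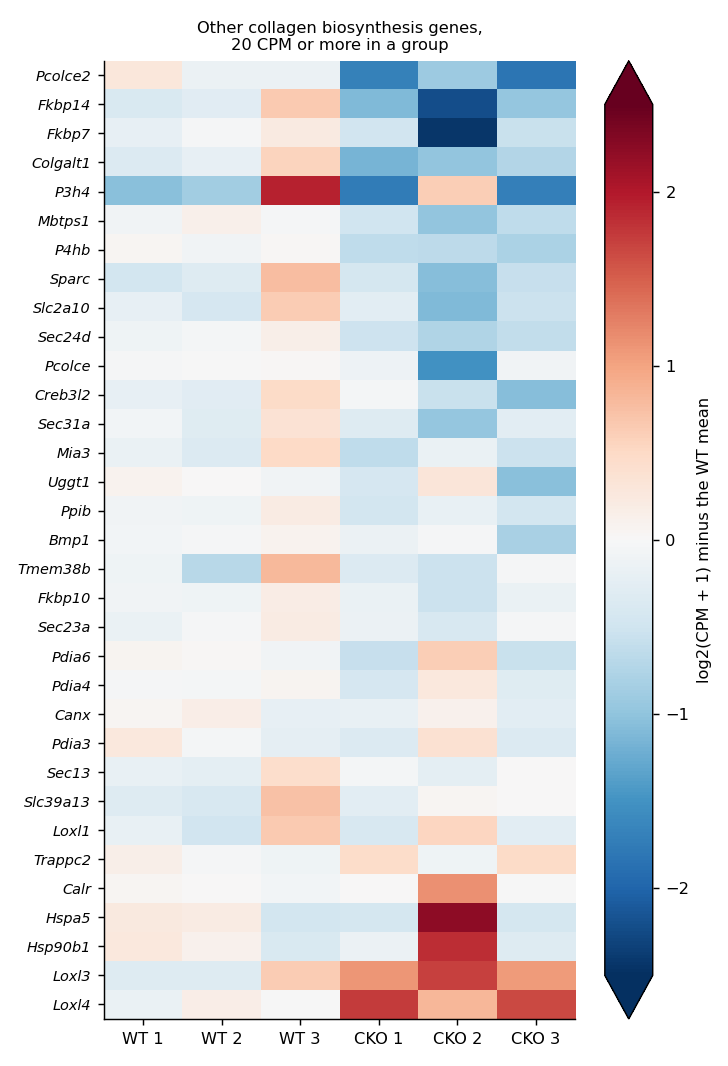
log2(CPM + 1) minus the mean of the WT libraries for the 33 genes of the biosynthesis list with at least 20 CPM in a group, ordered by the difference between CKO and WT. Loxl3 and Loxl4 are high (red) in all libraries labelled CKO, and Hspa5, Hsp90b1 and Calr are high in CKO 2 alone.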

How the data were processed

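The authors deposited 1 table of CPM for 15803 genes in 6 libraries of E18.5 growth plate cartilage RNA (TRIzol, stranded mRNA kit), and the submitters' processing notes name cutadapt 2.5, HISAT2 and featureCounts 1.6.3. The genome build, annotation and strand setting are not given in the sources used here. Each column summed to 1000000, and 100% of values were whole multiples of 1 read (within 0.01 reads), so reads were recovered. The 12155 genes whose mean reached 1 CPM were tested with limma 3.58.1 in R 4.3.3 on log2(CPM + 1) with a mean-variance trend and no covariate, adjusted over all of them by Benjamini-Hochberg at 0.05. A pseudocount of 1 understates the change of low genes. Ratios were compared with exact two-sided permutation tests over libraries, and the p-values printed are unadjusted, since 3 against 3 cannot go below 0.1. Adjusted by Benjamini-Hochberg, these tests gave 0.2 to 0.7 over the 4 isozyme ratios and 0.15 to 0.5 over the 9 ratios to collagens. The planned ratio of P3h2 to P3h1 and that of P3h2 to the collagens were left out because P3h2 had no reads in WT. Gene positions and exon lengths came from GENCODE M21 (GRCm38), promoters from RefSeq, and near-identical transcripts were sought with BLAST 2.17.0 (at least 90% identity over 300 bp), which found for members only the antisense overlaps of Plod2, Plod3 and P3h2. Alternatives were a pseudocount of 0.1, no filter, at least 10 reads in every library, TMM scaling, a replicate block, each library left out, and edgeR 4.0.16 and DESeq2 1.42.0 on the recovered reads. The fits were also run on simulated counts with the same spread setting for all genes and with large changes. That run does not check smaller changes or libraries that stand apart. All 10 members are named, with those of the biosynthesis list past the adjusted threshold, P4hb and Ppib, and members and lists were chosen with earlier results of these data known. The list genes Ctage5 and Tll2 were not used here.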

Additional observations from a re-analysis of the deposited data

How the results depend on the processing

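No call of Plod1 changed, and the direction of Plod1, Plod2, Plod3, P4ha2, P3h1 and Serpinh1 was the same in each of 14 alternatives. Members lower past the adjusted threshold numbered 1 to 4 with 1 library left out and members higher 0 to 1, while 2 and 0 met the criterion of the study each time. In the biosynthesis list these leave-outs gave 0 to 7 lower and 0 to 2 higher genes, and 5 were lower when 10 reads were required of each library and under edgeR under TMM or RLE factors. P4ha2 passed the threshold at -0.59 with at least 10 reads, -0.64 with TMM scaling, -0.63 and -0.625 with edgeR under TMM and RLE factors and -0.62 with DESeq2. With 1 library left out, log2 differences ranged from -1.53 to -1.02 for Plod2, -0.58 to -0.28 for Plod3, -0.67 to -0.47 for P4ha2, -0.26 to 0.039 for P4ha1, -0.76 to 0.33 for Crtap and -0.15 to 0.83 for Lox, and the log2 ratios from -0.082 to 0.31 for Plod2 to Plod1 and -0.14 to 0.78 for Crtap to P3h1. Crtap was at 0.11 with edgeR (TMM and RLE) and 0.095 with DESeq2. With Col2a1 alone as substrate the log2 ratio was -0.39 for Plod1 and -0.28 for Plod2, and with Col1a1, Col1a2 and Col3a1 added -0.089 for Plod1. The cause was not tested. Deviations from the group means showed little correlation between libraries of equal replicate number (0.038, -0.13 and -0.10). The paper compared mice with littermates, but the sources used here do not say which libraries share a litter. No other pairing was fitted. With equal numbers as a replicate block 2 members were lower and 0 higher, Plod1 at -1.41 and Plod2 at -1.30 as before. The list then held 1 higher gene. All genes called by adjusted p numbered 316 lower and 387 higher, against 160 and 225 with the block, 81 and 137 without WT 1, 79 and 133 without WT 2, 125 and 133 without CKO 1, 606 and 692 without CKO 2 and 108 and 123 without CKO 3. Those past the criterion of the study were 620 and 644, against 209 and 206 under that requirement of 10 reads. Depth limits P3h1, P3h2 and Crtap, at 0 to 39 reads per library.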

Other observations

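Collagen genes outside the list of 6 substrate genes differed among themselves. Standing outside this list does not mean outside cartilage. Col10a1 and Col27a1 are among them, and neither was in the sum of substrates. The median log2 difference of 12 such genes was -0.33. At an unadjusted p under 0.05, 6 were lower and 0 higher, where 10.1% of all genes tested were lower. Past limma's adjusted threshold, 3 were lower and 0 higher, against 2.6% and 3.18% of all genes. Those that fell were Col1a2 (605 ± 146 CPM in WT and 283 ± 62.0 CPM in CKO, SD, n = 3 each, log2 difference -1.09, limma's adjusted p = 0.0191), Col27a1 (516 ± 243 CPM and 199.6 ± 34.5 CPM, -1.28, limma's adjusted p = 0.0262) and Col5a1 (42.0 to 46.5 CPM and 21.6 to 27.5 CPM, -0.89, limma's adjusted p = 0.0391). The chains of collagen VI, which forms beaded filaments around chondrocytes, had log2 differences of 0.15 (Col6a1), 0.16 (Col6a2) and 0.0074 (Col6a3), none past the threshold.

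The following genes of steps next to those of the members were chosen after their values were seen, and none passed the threshold. The collagen galactosyltransferase Colgalt1, which acts on hydroxylysine, had 152 reads in WT and 76 in CKO (log2 difference -0.96, limma's adjusted p = 0.0816), and its paralog Colgalt2 had 51 and 12 (log2 difference -1.94, limma's adjusted p = 0.0578). Sec24d, of the coat of vesicles that carry procollagen, had a mean of 159 ± 15.1 CPM for WT and 102 ± 8.51 CPM for CKO (SD, n = 3 each, log2 difference -0.63, limma's adjusted p = 0.0513). P3h4, known from a complex with lysyl hydroxylase 1, gave 42.0, 47.3 and 334 CPM for WT 1 to 3, against 25.4, 134 and 26.0 CPM for CKO 1 to 3, and the groups overlapped (limma's adjusted p = 0.533). In P3h4, as in Crtap, WT 3 and CKO 2 were higher than the other libraries of their labels.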
